A study of Caenorhabditis elegans with 2 samples.

Results

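The genes described here are 8 genes of the muscle thin filament in Caenorhabditis elegans: act-1, lev-11, tnt-2, mup-2, pat-10, unc-27, unc-87 and clik-1. They were found by name among the 19973 protein-coding genes of the Ensembl annotation, and every ChIP-seq region with its summit in the body of one of them, or within 5 kb of it, was collected. The genes were listed with earlier results of these data known, so their counts are a description and no test was run over them. The study mapped DNA precipitated with PAG-3 by chromatin immunoprecipitation with sequencing (ChIP-seq) in 2 biological replicates, which formed its 1 group. Material came from whole L1 hermaphrodites, the first larval stage, which had been bleached, starved to synchronize them and taken 6 hours later. They belonged to strain OP154, with the genotype unc-119(ed3) III; wgIs154, in which a stable transgene expresses PAG-3 with a GFP-FLAG tag at its C-terminus. The antibody was against GFP. All animals carried the transgene and the unc-119 mutation, the tagged protein comes from an insertion and not from the native gene, and no control sample was analysed here. In whole larvae it cannot be told in which cells a region was bound.

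The thin filament is a polymer of actin along which tropomyosin lies, and the troponin complex sits on tropomyosin. Troponin C binds calcium, troponin I holds the filament in its relaxed state and troponin T ties the complex to tropomyosin, so that calcium sets whether myosin can pull on actin. Calponin-like proteins of the worm bind along actin filaments, and the one encoded by unc-87 bundles them. PAG-3, related to vertebrate Gfi1, carries zinc fingers and is known mainly from neurons, where it takes part in cell fate.

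Sequences of 101 bp centred on the summit are shown for 6 peaks that carry the account below: the promoter peaks of tnt-2, mup-2, unc-27 and act-1, the highest peak at act-1 and the highest at clik-1. They were read from the RefSeq genome of WBcel235 and run 5′ to 3′ on the strand of the gene. Capitals mark GAGAGA and ATGGCA on either strand, which were frequent at summits of this series in earlier results. The act-1 sequence past the gene end holds neither. Over the windows of all 17 peaks at these genes, 5 held neither. Among those not shown is the window of the clik-1 peak at the outer start, the highest promoter-window peak of the set.
tnt-2, chrX:8723906-8724006, minus strand: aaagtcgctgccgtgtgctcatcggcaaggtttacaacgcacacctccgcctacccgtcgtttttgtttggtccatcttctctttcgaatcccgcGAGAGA
mup-2, chrX:6410494-6410594, minus strand: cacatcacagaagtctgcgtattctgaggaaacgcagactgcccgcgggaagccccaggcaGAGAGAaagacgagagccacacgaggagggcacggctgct
unc-27, chrX:8789129-8789229, plus strand: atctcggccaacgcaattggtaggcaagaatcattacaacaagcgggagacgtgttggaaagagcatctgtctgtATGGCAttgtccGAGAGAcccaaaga
act-1 promoter, chrV:11080560-11080660, plus strand: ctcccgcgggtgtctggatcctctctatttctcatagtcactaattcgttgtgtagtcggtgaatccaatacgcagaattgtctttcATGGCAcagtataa
act-1 past the gene end, chrV:11083883-11083983, plus strand: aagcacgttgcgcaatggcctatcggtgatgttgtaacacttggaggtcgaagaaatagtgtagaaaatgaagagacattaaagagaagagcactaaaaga
clik-1 intron, chrV:6767742-6767842, minus strand: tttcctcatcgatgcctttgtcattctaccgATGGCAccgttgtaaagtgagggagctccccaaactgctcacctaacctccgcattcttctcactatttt

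Peaks lay at each of the 8 genes. The thresholded peak set, which the authors derived with the irreproducible discovery rate (IDR) as a measure of reproducibility, held 910 peaks, and 17 of them had a summit in or within 5 kb of these genes. Of all protein-coding genes, 10.2% had such a summit. There were 3 summits each at act-1, lev-11 and unc-27, 2 each at pat-10, unc-87 and clik-1, and 1 each at tnt-2 and mup-2. So 6 of the 8 genes had at least 2 summits, against 1.22% of all protein-coding genes, and 3 of the 8 had at least 3, against 0.23%. A promoter window around the outer end of the gene model, which took in 1000 bp before it and 200 bp after it, held a summit at 7 of the 8 genes and at 2.56% of all genes. The exception was unc-87. Counting the window of any annotated transcript start, it was again 7 of 8, against 2.85% of all genes. The full list of 30000 regions called on both replicates together contains these peaks beside background. The same 7 windows therefore had to hold a region of it, and the window of unc-87 held none. Of all genes, 40.6% had such a region, and the 7 add nothing to the counts above.

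**Figure D1:**
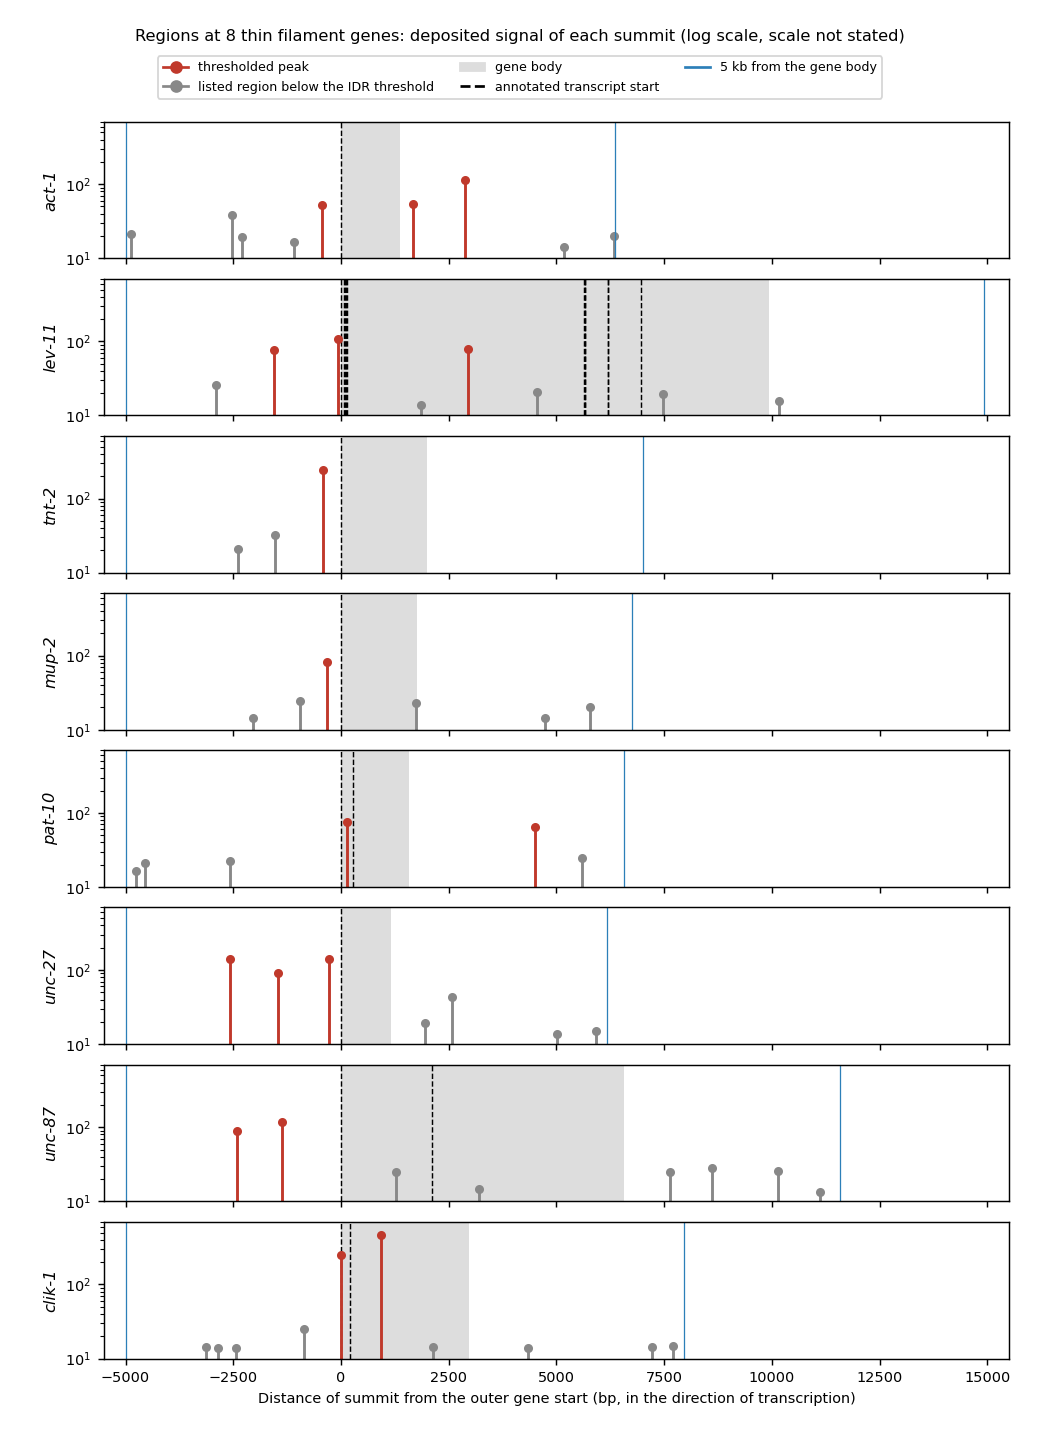
Regions at the 8 genes by distance of the summit from the outer gene start (x axis, bp in the direction of transcription) and deposited signal (y axis, log scale of unstated unit). Red points are the 17 thresholded peaks, grey points the other 40 listed regions, shading the gene body, dashed lines annotated transcript starts and blue lines the 5 kb limit. A red point stands at or just upstream of the outer start in every row but unc-87, where both lie farther upstream, and pat-10, where it lies between its 2 starts.

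Each region came with a signal, a value that the authors' peak calling assigned to it. Its scale is not stated, and it serves here to rank and compare regions within a list. Over the 17 peaks the median signal was 92.1 and the median rank 168, while over all 910 peaks the median signal was 58.5 and the median rank 455.5. The 17 ran from 52.1 to 468. Ranks at or above 100 were held by 5 of them, and only 2, both at act-1, ranked below the higher-signal 455 peaks. The number of reads behind a region is unknown. Places that are precipitated with many different factors were not marked, and their share among these peaks was not tested.

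**Figure D2:**
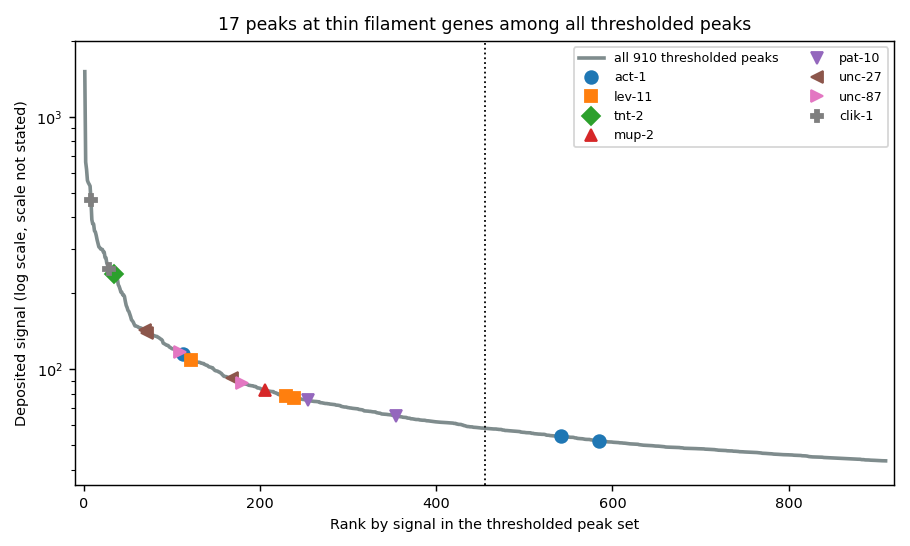
Signal (y axis, log scale of unstated unit) against rank (x axis) for all 910 thresholded peaks (grey line) and the 17 peaks at thin filament genes (coloured markers, 1 colour and shape per gene). The dotted line marks the median rank of 455.5; 15 of the 17 markers lie to its left, led by clik-1 at rank 8, and the 2 to its right belong to act-1.

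At actin itself, the promoter peak had the lowest pooled signal of 3, just below the second peak, while replicate 1 ranked the second peak lowest. The gene act-1 is a muscle actin gene on chromosome V, from 11081052 to 11082415 on the plus strand in the ce11 assembly (WBcel235), and shares a cluster with act-2 and act-3. Its promoter summit lay at 11080610, 442 bp upstream of the start and within the non-coding RNA gene T04C12.16, with a pooled signal of 52.1 (rank 585). That region had a signal of 38.0 and rank 602 in replicate 1, and a signal of 13.6 and rank 2348 in replicate 2. A second summit lay at 11082713, 298 bp past the gene end and within the non-coding RNA gene T04C12.29, with a pooled signal of 54.3 (rank 541) and ranks of 920 in replicate 1 and 400 in replicate 2. The highest of the act-1 peaks was also past the gene end, by 1518 bp, in intergenic sequence at 11083933. It had a pooled signal of 115 (rank 113) and ranks of 120 in replicate 1 and 99 in replicate 2. Of all 3, act-1 was the protein-coding gene with the nearest start. The replicates thus ranked the last of these alike and the first far apart.

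Near-identical gene copies limit what can be read from the actin gene itself. Within the act-1 gene body, 12.6% of the 36-base words occurred at only 1 place in the nuclear genome. All 17 peaks, by contrast, were made up wholly of 36-base words found at 1 place. Neither read length nor the treatment of reads with several matches is known here, so the absence of a region from the act-1 body shows nothing of binding there.

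Tropomyosin is encoded by lev-11, which spans 9926 bp on the minus strand of chromosome I, from 14621169 to 14631094. It has 11 annotated transcript starts, 5 within 135 bp of the outer end and 6 from 5648 to 6960 bp inside the gene. The promoter summit at 14631152 lay 58 bp upstream of the outer start, with a pooled signal of 109 (rank 121). It ranked 123 in replicate 1 (signal 81.0) and 129 in replicate 2 (signal 32.2). A summit 1553 bp upstream, at 14632647 in intergenic sequence, had a pooled signal of 77.2 (rank 239). The third lay in an intron at 14628156, 2938 bp downstream of the outer start and 2710 bp upstream of the nearest inner start, with a pooled signal of 78.2 (rank 229). Both of these stood lower in replicate 2, with ranks of 666 and 804, than in replicate 1, with ranks of 248 and 240. No thresholded summit lay within 1000 bp upstream of an inner start. The listed region closest upstream of the inner starts had its summit 1109 bp from the nearest, with a pooled signal of 21.0 (rank 7504).

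The pair of troponin T genes each had a single thresholded peak, upstream of the start. tnt-2 lies on the X chromosome from 8721546 to 8723550 on the minus strand, and its summit at 8723956 was 406 bp upstream in intergenic sequence. The pooled signal there was 239 (rank 34), with 183 in replicate 1 (rank 32) and 56.5 in replicate 2 (rank 39). This was the highest promoter-window peak of the set after that of clik-1, and both replicates placed it among their highest 40 regions. mup-2, from 6408471 to 6410227 on the minus strand of X, had its summit at 6410544, 317 bp upstream and within the non-coding RNA gene T22E5.10. Its pooled signal was 82.8 (rank 206). Replicate 2 ranked this region higher, at 96 (signal 36.2), than replicate 1 did, at 407 (signal 45.4).

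Troponin C, the calcium sensor, is encoded by pat-10 on the minus strand of chromosome I, from 5018783 to 5020358. Its promoter summit at 5020217 fell between its 2 annotated starts, 141 bp downstream of the outer and 131 bp upstream of the inner one, in the 5′ untranslated region of the longer transcripts. The pooled signal was 75.4 (rank 254), with 61.8 in replicate 1 (rank 206) and 18.3 in replicate 2 (rank 704). Another summit lay 2937 bp past the gene end at 5015846, in an intron of F54C1.6 and 414 bp from the start of that gene. It had a pooled signal of 65.4 (rank 354) and ranks of 399 in replicate 1 and 2044 in replicate 2. By distance it belongs with F54C1.6 rather than with pat-10.

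Troponin I is encoded by unc-27, whose upstream sequence held a row of peaks. The gene lies on the plus strand of X, from 8789456 to 8790621. The promoter summit at 8789179 was 277 bp upstream of the start, within the non-coding RNA gene ZK721.6, and had a pooled signal of 139 (rank 72), with 105 in replicate 1 (rank 67) and 35.2 in replicate 2 (rank 107). A summit 1464 bp upstream, at 8787992 in intergenic sequence, had a pooled signal of 92.1 (rank 168) and ranks of 152 in replicate 1 and 601 in replicate 2. The farthest, 2569 bp upstream at 8786887, had the highest pooled signal of the row, 143 (rank 69), and ranks of 98 in replicate 1 and 43 in replicate 2. It lay in the 3′ untranslated region of ZK721.3, whose start, 2353 bp away, is the nearest of a protein-coding gene. Gaps between neighbouring summits were 1105 and 1187 bp. The order of the outer pair differed between replicates, with the promoter peak ahead in replicate 1 and the farthest one ahead in replicate 2.

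Of the calponin-like genes, unc-87 encodes a protein of calponin-like repeats that bundles actin in muscle. It spans 6577 bp on the minus strand of chromosome I, from 6761221 to 6767797, with an inner start 2107 bp inside. Its 2 summits lay farther upstream than the promoter window reaches, both in intergenic sequence. One was at 6769161, 1364 bp upstream of the outer start, with a pooled signal of 117 (rank 109), a signal of 90.5 in replicate 1 (rank 101) and one of 27.3 in replicate 2 (rank 196). The other was at 6770221, 2424 bp upstream, with a pooled signal of 88.1 (rank 180) and ranks of 233 in replicate 1 and 260 in replicate 2. Both had unc-87 as the protein-coding gene with the nearest start. No thresholded summit lay near the inner start, where a listed region 831 bp upstream had a pooled signal of 24.6 (rank 4324).

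The highest peaks of the set were at clik-1, which encodes a small protein of the same calponin-like repeat. It lies on the minus strand of chromosome V, from 6765768 to 6768732. The peak of highest signal had its summit at 6767792 in an intron, 940 bp downstream of the outer start and 723 bp downstream of the inner one. Its pooled signal was 468 (rank 8), with 333 in replicate 1 (rank 8) and 128 in replicate 2 (rank 7). At 195 bp it was also the only one of the 17 regions that did not have the usual width of 340 bp. A second summit, at 6768734, lay 2 bp upstream of the outer start, with a pooled signal of 249.5 (rank 29), a signal of 169.9 in replicate 1 (rank 38) and one of 79.6 in replicate 2 (rank 17). This locus is shared with T25F10.1, a short gene on the opposite strand from 6768502 to 6768786. The second summit lay in the coding exon of T25F10.1, and the first was 710 bp from the T25F10.1 start and so slightly nearer to it than to either clik-1 start.

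Both replicates listed all 17 regions. Each had a summit within 100 bp in the replicate 1 list and in the replicate 2 list, with offsets of at most 66 and 51 bp, while 82.5% of all 910 peaks had a match in both. Of the 17, 16 ranked within the highest 910 regions of replicate 1 and 15 within those of replicate 2, against 78.02% and 52.6% of all thresholded peaks. The median rank was 152 in replicate 1 and 196 in replicate 2. In the pooled list the 17 also stood higher than the 910 as a whole, with median ranks of 168 and 455.5. Peaks of like pooled rank were not compared. Over the 17 peaks the ranks in both replicates had a Spearman rho of 0.76, and over the 751 matched peaks of the whole set one of 0.41. These are correlations across peaks, of which several share a gene, within lists that the joint signal had already selected, and they are given as a description. The act-1 promoter and the pat-10 peak in F54C1.6 were the 2 of the 17 with replicate 2 ranks beyond 910, at 2348 and 2044, against 602 and 399 in replicate 1. The mup-2 promoter was among the 6 that replicate 2 ranked higher.

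**Figure D3:**
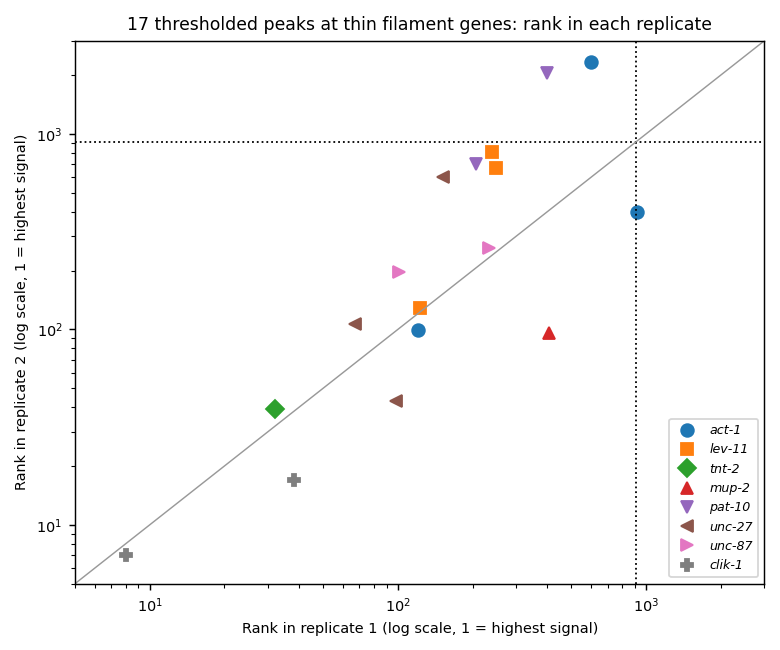
Rank of the 17 peaks in replicate 1 (x axis) and replicate 2 (y axis), both on a log scale with 1 as the highest signal, with 1 colour and shape per gene. The grey line marks equal ranks and the dotted lines rank 910; 11 points lie above the grey line, with a better rank in replicate 1, and 6 below it.

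By place, 11 of the 17 summits lay upstream of the outer start of their gene, 3 within the gene and 3 past its end. Annotated features at the summits were intergenic sequence for 7, introns for 3, non-coding RNA genes for 4, and a coding exon, a 5′ untranslated region and a 3′ untranslated region for 1 each. The median distance to the nearest transcript start of the gene itself was 1364 bp. To the nearest transcript start of any protein-coding gene it was 710 bp for the 17 and 747 bp for all 910 peaks. Neighbouring summits at the same gene were 942 to 4371 bp apart, with a median of 1220 bp over 9 gaps. For 14 of the 17, the protein-coding gene with the nearest start was the thin filament gene itself, and the others were nearest to F54C1.6, ZK721.3 and T25F10.1. With a limit of 2 kb, 14 summits were left and their median distance to a transcript start of the gene itself was 582.5 bp. With 10 kb there were 18, with a median of 1414 bp. Under the limit of 5 kb, the summit farthest from its gene body was the pat-10 one at 2937 bp, and the nearest thresholded summit beyond the limit was 7515 bp from act-1, at act-3 (signal 93.0, rank 163).

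The other 40 regions at the 8 genes were listed but not thresholded, with signals from 13.4 to 42.7 and a median of 19.3. The lowest thresholded signal in the genome was 43.4. The notes describe the full list as peaks and background together, and these regions are not read as binding.

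The sequence at the summits was searched for 7 words within 50 bp on either strand. GAGAGA occurred at 9 of the 17 summits (52.9%), spread over lev-11, mup-2, pat-10, tnt-2, unc-27 and unc-87, and at 28.8% of all 910 summits, with 7.20% in windows 300 bp to either side of the 910. ATGGCA occurred at 6 of the 17 (35.3%), at act-1, clik-1, unc-27 and unc-87, and at 15.2% of all summits, with 3.19% in their flanks. GAGAGA or ATGGCA was held by 12 of the 17 summits, against 39.9% of all summits. Each of the 8 genes had at least 1 such summit, but 6 of the genes had at least 2 summits. No share per gene was computed for other genes, so this count has no background. Both together were found at 3 of the 17, the unc-27 promoter peak and both unc-87 peaks, and at 4.07% of all 910. Most copies lay off the summit itself. Within 25 bp, GAGAGA was found at 2 of the 17 (11.8%) and at 15.5% of all summits, and ATGGCA at 1 of the 17 (5.88%) and at 7.14% of all. The windows of the 17 were GC-rich, with a median of 47.5% (35.6 to 60.4), against 43.6% over all summits and 33.7% in the flanks. These words were chosen because earlier results of these data had shown them at summits, and the counts carry no test.

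None of the other words was found at the 17 summits. AATCAC, central to the vertebrate Gfi1 site, occurred at 0 of 17 and at 5.05% of all 910, with 5.11% in their flanks. GACGCA was at 0 of 17 and at 12.0% of all, with 2.31% in the flanks. CACGTG, an E-box, was at 0 of 17 and 5.71% of all, with 1.54% in the flanks. Like GAGAGA and ATGGCA, both GACGCA and CACGTG were chosen as frequent at summits in earlier results of these data. CAGCTG and CACCTG, E-boxes of the kind bound by the muscle factor HLH-1, were at 0 of 17 each and at 5.16% and 4.40% of all. Their shares in the flanks were 1.81% and 2.58%. With 17 windows such zeros are no measure of rarity, and they say only that these letters are not in these windows.

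Other genes of the thin filament were counted in the same way. Of 34 further genes on 2 lists, 12 had a thresholded summit in the body or within 5 kb and 22 had none, against 10.2% of all genes with one. A promoter window held a summit at 1 of the 34, against 2.56% of all genes. Since the 8 genes were listed with these results known, the contrast with them was not tested.

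**Figure D4:**
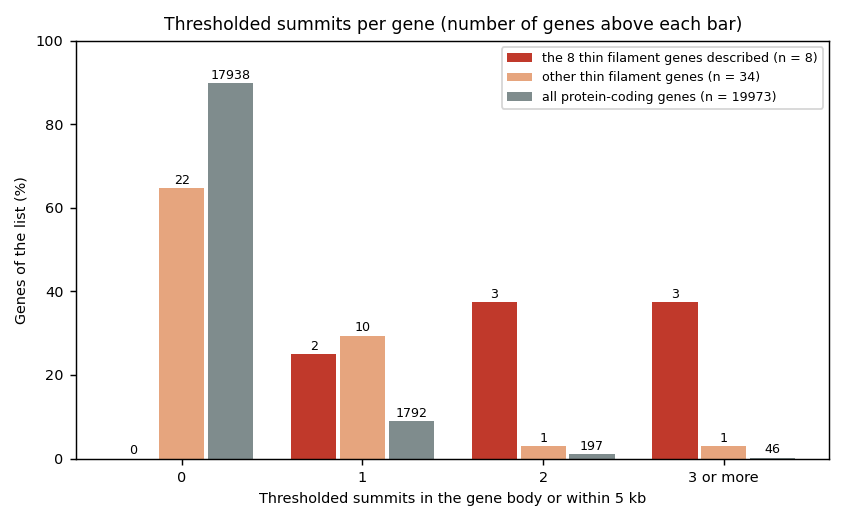
Share of genes (y axis, percent, from 0) by number of thresholded summits in the gene body or within 5 kb (x axis), for the 8 genes described, 34 other thin filament genes and all 19973 protein-coding genes, with the number of genes above each bar. None of the 8 genes stands at 0, where 17938 of all genes lie, and 3 of them stand at 3 or more.

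The list of paralogues, 16 further actin, troponin and calponin-like genes, had a summit at 5 genes within 5 kb and at none of their promoter windows. In the actin cluster, a summit at 11073537 on chromosome V lay in an intron of act-3, 273 bp upstream of an inner start, with a pooled signal of 93.0 (rank 163) and ranks of 186 in replicate 1 and 301 in replicate 2. The gene act-2 had 3 summits within 5 kb, but these were the act-3 one and the lower pair of act-1. Its own nearest region, 365 bp upstream of its start, had a pooled signal of 38.9 (rank 1200) and was not thresholded. act-4, an actin gene on X, had a peak 3120 bp upstream with a pooled signal of 353 (rank 12), which lay 83 bp from the start of M03F4.4. act-5, an actin of the intestine, had none.

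Of the troponin paralogues, tni-1 alone had a peak. No thresholded summit lay within 5 kb of the troponin T genes tnt-3 and tnt-4, the troponin I genes tni-3 and tni-4 or the troponin C gene tnc-2. A summit 2241 bp upstream of tni-1 had a pooled signal of 84.2 (rank 199), with ranks of 195 in replicate 1 and 664 in replicate 2. Among the calponin-like genes, cpn-3 had a summit 848 bp downstream of its start and past its end, with a pooled signal of 151 (rank 57) and ranks of 99 in replicate 1 and 33 in replicate 2. None was found at clik-2, clik-3, cpn-1, cpn-2 or cpn-4.

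On the list of 18 genes of filament dynamics, capping and anchorage, 7 had a summit within 5 kb and 1, the profilin gene pfn-3, in the promoter window. The pfn-3 summit lay 149 bp upstream, with a pooled signal of 52.2 (rank 584). ketn-1, which encodes the giant actin-binding protein kettin, had a summit 1709 bp upstream with a pooled signal of 92.1 (rank 169), nearer to the start of F54E2.1. The summit of tmd-2, a tropomodulin gene, lay in an intron, 849 bp upstream of an inner start, with a pooled signal of 51.3 (rank 606). That of cas-1, a gene of a cyclase-associated protein, was 2034 bp upstream with a pooled signal of 72.7 (rank 282) and had no match in replicate 2. The summits near unc-60, the cofilin gene (61.1 and 47.8), cap-1, a capping protein gene (63.1), and pfn-2, another profilin gene (66.5), were each closer to a different gene. Those genes were gid-8 and C38C3.4 beside unc-60, D2024.4 beside cap-1 and syx-3 beside pfn-2. The remaining 11 genes, among them the tropomodulin gene unc-94 and the profilin gene pfn-1, had no thresholded summit.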

How the data were processed

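PAG-3 ChIP-seq regions of 2 biological replicates were used as deposited. Per the library notes deposited with the files, each replicate list and the list of both replicates together hold both peaks and background for use by IDR, made from alignments on ce11 and 1 control file, and the thresholded set was derived from these 3 lists. The deposited signal is the value of a region as the authors gave it, of unstated scale. It was compared only within a list, by rank or by value. Depth is unknown. Aligner and caller: not given in the sources used here. Lists on ce10 were not used.

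Genes came from Ensembl release 115 on WBcel235 and sequence from RefSeq, and all regions lay within its chromosomes. A replicate region was matched to a peak where the summits lay within 100 bp. Windows, words and matches were computed with Python 3.11.15 and pandas 2.3.3, and the counting was tested on planted summits. The genes, the 2 lists of other thin filament genes and the words were chosen with earlier results of these data known. The text names each of the 8 genes with all its thresholded summits, the gene of the nearest start, and each listed gene with such a summit. Other names and the neighbouring regions below the threshold were chosen after their values were seen. With 1 group and no control, no test across conditions was possible, and replicate signals are given one by one with no mean.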

Additional observations from a re-analysis of the deposited data

How the results depend on the processing

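Of 64 alternative values, 58 stayed within 1.5 times the reported count, or within the standard deviation between replicates for medians. Part of this tally could hardly have moved. It includes words with 0 hits at the summits, which mostly stayed at 0. For the median rank, the standard deviation came from the same 2 replicate medians that it judged. The tally is therefore no measure of robustness. With the 910 highest regions of either replicate taken alone, all 8 genes had a summit within 5 kb, 6 to 7 had one in the promoter window, and 16 summits lay at the genes in either case. In replicate 2 these were not all from the 17, of which 15 ranked that high there. The median rank was 152 to 196. With the higher-signal 455 peaks, the act-1 promoter peak dropped out and 6 genes had one in the window. The median distance of 1364 bp to a transcript start of the gene itself moved to 710 bp over starts of any protein-coding gene, to 582.5 bp with a limit of 2 kb and to 1414 bp with 10 kb, where starts of other genes enter or summits leave or join. Within 25 bp of the summit, GAGAGA and ATGGCA were found at 2 and 1 of the 17 summits, and within 100 bp GACGCA was found at 1. Neighbouring genes can share a peak, and read depth, which is unknown, limits the weaker peaks.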

Other observations

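Of all protein-coding genes, 40.6% had a region of the full list, thresholded or not, in the promoter window. Some regions that were not thresholded lay at starts of genes neighbouring the 8. One lay 130 bp from the start of chup-1, past the end of unc-27, with a pooled signal of 42.7 and rank 944, which is the highest of the 40 such regions at the 8 genes and close to the lowest thresholded signal of 43.4. Replicate 2 ranked this chup-1 region at 389 and replicate 1 ranked it at 1895. Far below it, at calu-2, past the end of unc-87, a region had its summit 7 bp from the start, with a pooled signal of 25.2 (rank 3983). Upstream of tnt-2 itself, a second region at 1535 bp had a pooled signal of 31.7 (rank 2053), against 239 for the promoter peak of the same gene. Neither this region nor the calu-2 one had a match in replicate 2.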
